A study of Mus musculus with 6 samples.

Results

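Collagens are the triple-helical proteins of the extracellular matrix, and each of their chains is built on a long Gly-X-Y repeat, with glycine at the start of every unit. Fibrillar collagens form the fibres of the dermis and of tumour stroma, collagen VI forms beaded filaments, and collagen IV forms the sheet of the basement membrane. Collagen VII anchors that sheet to the dermis, and collagen XVII crosses the basal keratinocyte membrane in the hemidesmosome. FACIT collagens decorate fibrils, and the short-chain collagens VIII and X form hexagonal networks. Members were taken as the array's genes named Col, a number, a and a number, which gave 44 genes with 91 probes among 37008 features. Of the 44, 32 were measured well enough to be tested, among 19755 tested features.

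The mice were male. Of the skin tumours whose RNA was measured, 3 carry the genotype label P2ry6+/+ (wild-type) and another 3 the label P2ry6-/- (knockout). P2ry6 encodes a receptor for extracellular nucleotides. Both groups had received 195 nmol of the carcinogen DMBA once on shaved back skin and then 16 nmol of the tumour promoter TPA repeatedly up to week 22, and no untreated skin was analysed here. Strain and age are not in the labels, nor whether the tumours of a group came from separate mice, so p-values measure only the spread between these samples. RNA was labelled with Cy3 and hybridised to 1 Agilent array per tumour. Whole-tumour RNA was measured, so fewer cells of a type and less RNA per cell cannot be told apart.

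All 6 arrays lay on 1 slide, had 0 saturated spots and had 54.2% to 59.4% of spots well above background. The P2ry6 probes did not read lower in the tumours labelled knockout: 1 averaged 0.57 ± 0.13 there against 0.17 ± 0.33 in those labelled wild-type, and the other −0.70 ± 0.25 against −1.24 ± 0.37 (log2, SD, n = 3). Which exon was deleted is not in the labels, and probes beyond the deletion cannot check it, so the groups are called labelled knockout and labelled wild-type throughout. The basal keratinocyte markers Krt5 and Krt14 were above background in every tumour. Levels below are log2 signal minus the 75th percentile of the same array, so 0 is that percentile. They may be compared between tumours for 1 gene but not between genes, since probes differ in brightness. Each difference is the labelled knockout mean less the labelled wild-type mean, in log2 units, tested with limma over all features with Benjamini-Hochberg adjustment, and values are in the order of replicates 1, 2 and 3. A gene is said to have risen or fallen only where its adjusted p was under 0.05.

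The repeat that defines the family can be read in some of the array's own 60-base probes. Glycine codons begin with GG, and a triple-helical stretch of coding sequence therefore has GG at every ninth base. A run of that kind through the whole probe was found in 4 of the 91 collagen probes (4.4%) and in 4 of the 56514 other probes (0.00708%). The 4 collagen probes are shown because they carry this family feature. The GG-type codons are in capitals, and positions are on mouse build mm9, as the files give them. The Col15a1 probe (chr4:47283786-47283845, plus strand) is the one used for that gene below. The Col6a3 probe (within chr1:92689602-92690594, minus strand) is an additional one for its gene. The Col11a2 probe (within chr17:34189287-34189453, plus strand) and the Col5a3 probe (within chr9:20590066-20590795, minus strand) did not pass the background filter. Where the stretch is longer than the probe, the files give only its outer ends.
Col15a1: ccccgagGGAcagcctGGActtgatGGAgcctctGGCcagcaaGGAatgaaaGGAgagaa
Col6a3: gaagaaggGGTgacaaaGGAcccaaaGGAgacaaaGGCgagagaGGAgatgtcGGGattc
Col11a2: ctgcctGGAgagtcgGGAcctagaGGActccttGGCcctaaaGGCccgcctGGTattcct
Col5a3: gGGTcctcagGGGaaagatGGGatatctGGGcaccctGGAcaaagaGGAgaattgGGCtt

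The labelled knockout tumours read higher for 24 and lower for 8 of the 32 tested collagens. Over all tested features, 52.1% read higher and 47.9% lower. The median difference of the collagens was 0.57, against 0.02 over all features, with a range from −2.57 to 1.11. Only Col8a2 passed adjustment (limma, adjusted p = 0.0257), and 0.162% of all features did so in either direction, 0.111% as lower and 0.0506% as higher. At an unadjusted p under 0.05, 5 collagens were higher (15.6%, background 7.85%) and 2 lower (6.25%, background 5.36%). The labelled genotypes did not overlap for 4 collagens that read higher (12.5%, background 12.1%) and 3 that read lower (9.38%, background 7.36%), shares close to the background. Over the 27 collagens above background on all 6 arrays, the median was 0.56, with 21 higher and 6 lower.

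All 10 tested fibrillar genes read higher, as did 4 of 5 in the group of collagen VI chains and Col26a1, while the basement membrane genes split 4 to 3, and both short-chain genes read lower. The fibrillar median was 0.69, the basement membrane median 0.06, the FACIT median 0.17 over 4 genes, the transmembrane median 0.46 over 4 genes and the short-chain median −1.68 over 2 genes.

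**Figure D1:**
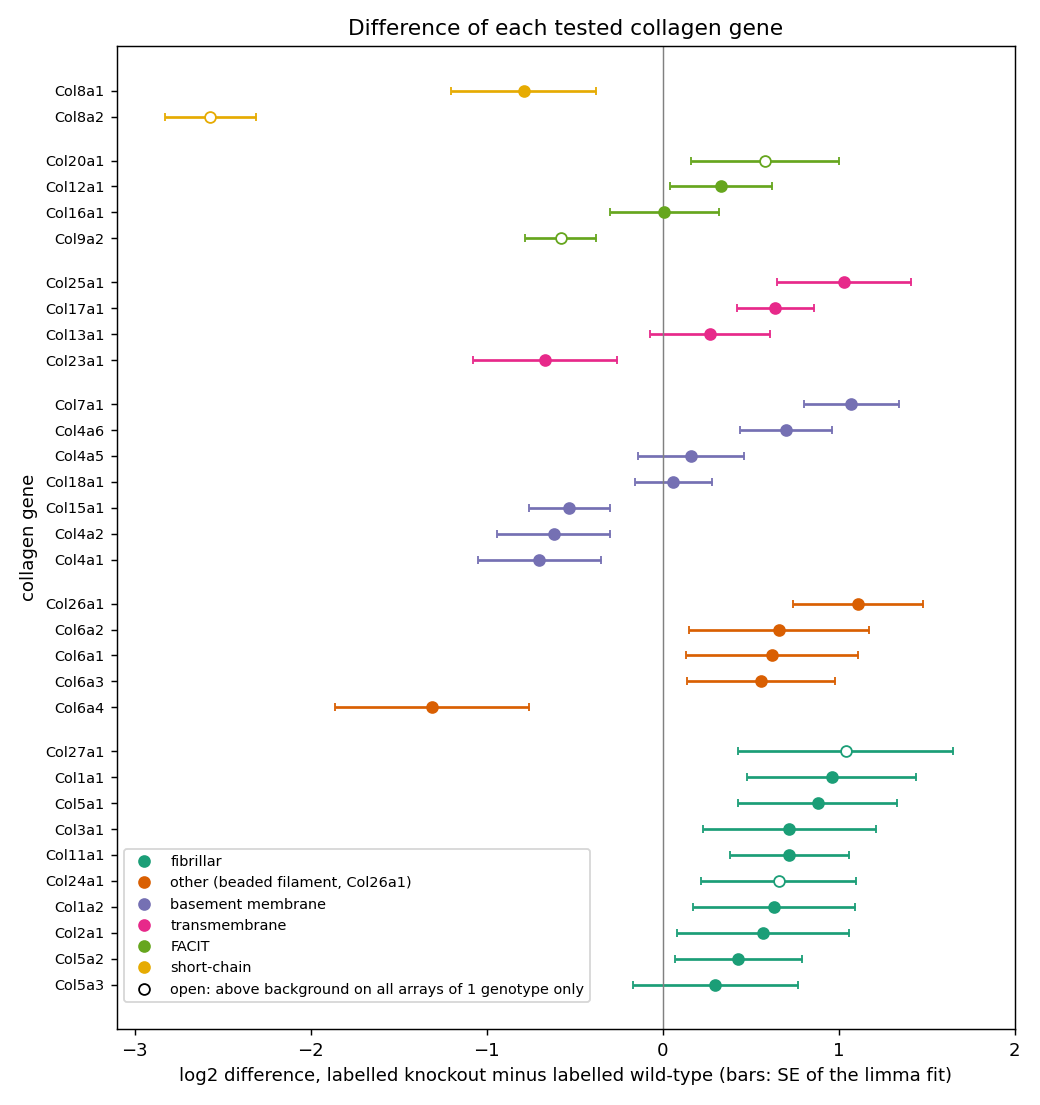
Log2 difference, labelled knockout minus labelled wild-type, for each of the 32 tested collagen genes (horizontal axis), ordered by structural class; bars are 1 SE of the limma fit and open circles are genes above background on all arrays of 1 genotype only. All 10 fibrillar genes lie right of 0 with long bars, while Col8a2 lies far left at −2.57.

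Fibrillar collagens make the tensile fibres, and collagens I and III are their main skin types. All 10 tested genes read higher in the labelled knockout tumours, by 0.30 to 1.04, but 0 passed adjustment (limma) and 0 had an unadjusted p under 0.05. Col1a1, an alpha chain of collagen I, read 6.38, 6.92 and 5.23 in the labelled wild-type tumours and 7.11, 7.71 and 6.58 in the labelled knockout tumours. The groups overlapped, because labelled wild-type replicate 2 lay above labelled knockout replicate 3. The difference was 0.96 ± 0.48 (SE) with an adjusted p of 0.450. Col1a2, the partner chain, read 7.04, 7.44 and 5.89 against 7.44, 7.98 and 6.85, a difference of 0.63 ± 0.46 (SE, adjusted p = 0.605). Collagen III is encoded by Col3a1, which read 5.70, 6.20 and 4.56 against 6.13, 6.87 and 5.61, a difference of 0.72 ± 0.49 (SE, adjusted p = 0.577). In each of these genes, labelled wild-type replicate 3 was the lowest tumour and labelled knockout replicate 2 the highest.

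Collagen V regulates the diameter of collagen I fibrils. Its Col5a1 chain read 2.89, 3.78 and 2.03 against 3.77, 4.16 and 3.40, a difference of 0.88 ± 0.45 (SE, adjusted p = 0.455). Col5a2 differed by 0.43 ± 0.36 and Col5a3 by 0.30 ± 0.47 (SE). Col5a3 was the fibrillar gene with the smallest difference, and its highest tumour was labelled wild-type replicate 2, at 2.62. The cartilage-type fibrillar genes Col11a1 and Col2a1 differed by 0.72 ± 0.34 and 0.57 ± 0.49 (SE). Another passed probe of Col11a1 went the other way, at −0.12, so that gene's direction depends on the probe. Col24a1 and Col27a1, both dim here, differed by 0.66 ± 0.44 and 1.04 ± 0.61 (SE). Both passed the filter only through the labelled knockout tumours, where all 3 arrays were above background, against 2 arrays for Col24a1 and 1 for Col27a1 in the labelled wild-type tumours. An additional probe of each gene did not pass the filter and went the other way, at −0.76 for Col24a1 and −1.26 for Col27a1. It was above background on 0 arrays for Col24a1 and on 1 labelled wild-type array for Col27a1.

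Labelled wild-type replicate 3 was the lowest of the 6 tumours for 10 of the 10 fibrillar genes and for 18 of all 32 collagens. Labelled knockout replicate 2 was the highest for 7 of the 10 and for 15 of the 32. The mean fibrillar level was 1.35, 1.97 and 0.37 in the labelled wild-type tumours and 1.96, 2.32 and 1.49 in the labelled knockout tumours, so the labelled wild-type range covered part of the labelled knockout range. Without labelled wild-type replicate 3 the fibrillar median was 0.26, with 9 of 10 genes higher and Col5a3 at −0.09, and the median of all collagens was 0.14. Without labelled knockout replicate 2 the fibrillar median was 0.40. The first slide position number was 1 for labelled wild-type replicate 2 and labelled knockout replicates 1 and 2, and 2 for the others. The mean fibrillar level was 1.96 to 2.32 at number 1 and 0.37 to 1.49 at number 2, without overlap. With that number as a block the fibrillar median was 0.36, with Col5a3 at −0.04, and the median of all collagens was 0.24. The cause of this split was not tested.

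**Figure D2:**
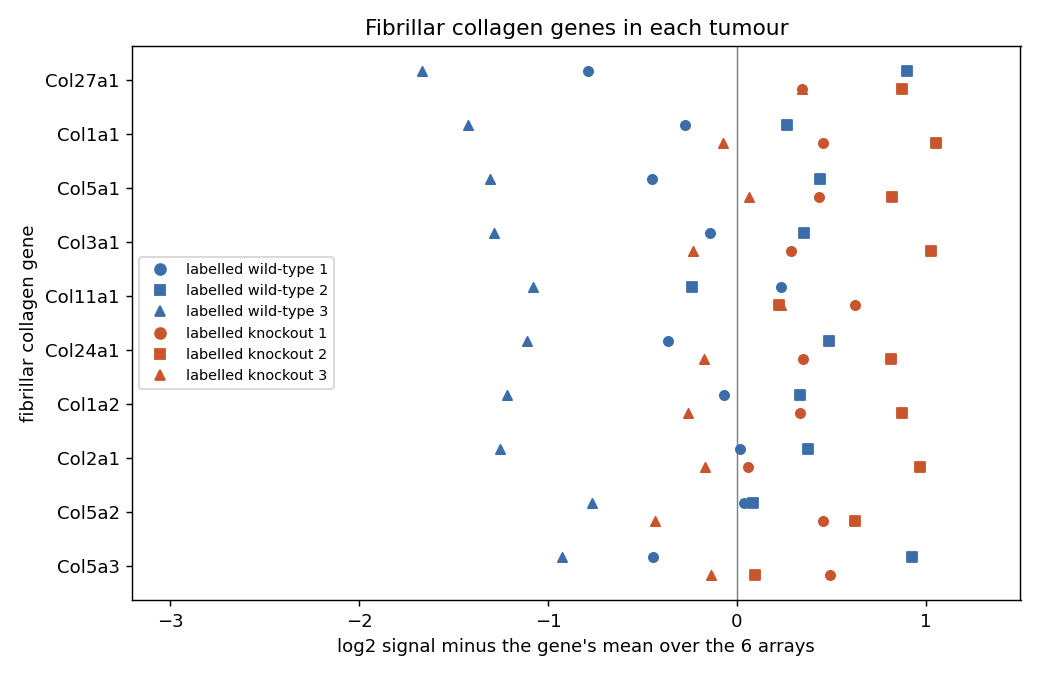
Level of each of the 10 tested fibrillar collagen genes in each tumour (log2 signal minus that gene's mean over the 6 arrays, horizontal axis), coloured by labelled genotype with a symbol per replicate. Labelled wild-type replicate 3 (blue triangle) is the lowest point in every row, and labelled knockout replicate 2 (orange square) is the highest in 7 of the 10.

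Fibroblasts make most fibrillar collagen, and markers of that cell type were read beside these genes. Of 8 fibroblast markers, 5 read higher and 3 lower, with a median difference of 0.24. None passed adjustment (limma). At an unadjusted p under 0.05, 2 read lower (background 5.36%) and 0 higher (background 7.85%). Their mean level was 1.40, 1.99 and 0.26 in the labelled wild-type tumours and 1.02, 1.47 and 0.47 in the labelled knockout tumours, again lowest in labelled wild-type replicate 3. The markers did not move together. Pi16 differed by −2.61 ± 0.52, Clec3b by −1.33 ± 0.41 and Thy1 by −0.40 ± 0.30 (SE). Dpt, the dermatopontin gene, differed by 1.19 ± 0.86 (SE), with overlapping groups. Pdgfra, Lum, Fbln1 and Dcn differed by 0.43, 0.40, 0.39 and 0.10. All 8 were above background in every labelled wild-type tumour, and Clec3b was above background in 1 labelled knockout tumour. Clec3b therefore passed the filter only through the labelled wild-type tumours. The part of fibroblast content in the fibrillar values was not tested.

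Several genes had additional passed probes, some designed on Ensembl transcripts, whose readings the choice of the brightest probe left out. Of 13 collagen genes with at least 2 passed probes, 11 had all probes on the same side of 0 and 2 (Col11a1 and Col16a1) did not. Col1a1 probes ranged from 0.60 to 0.96, Col1a2 probes from 0.63 to 1.07 and Col3a1 probes from 0.72 to 0.96. Of 9 passed probes designed on Ensembl transcripts that were not the one taken, 9 read higher in the labelled knockout tumours, 5 of them in fibrillar genes. Labelled wild-type replicate 3 was the lowest tumour for 8. All 9 belong to genes whose taken probe also read higher, so the count adds no support of its own. Passed probes designed on other transcripts and not taken read in both directions, lower for Col11a1, Col16a1 and Col23a1. These probes measure the same RNA as the others, so they are not replicates of the comparison.

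The collagen VI chains Col6a1, Col6a2 and Col6a3 read higher, with labelled wild-type replicate 3 the lowest tumour and labelled knockout replicate 2 the highest. Col6a1 read 3.72, 4.89 and 3.02 in the labelled wild-type tumours and 4.51, 4.96 and 4.02 in the labelled knockout tumours, a difference of 0.62 ± 0.49 (SE, adjusted p = 0.645). Col6a2 differed by 0.66 ± 0.51 and Col6a3 by 0.56 ± 0.42 (SE). The 3 differences were within the spread of the labelled wild-type tumours, whose SD was 0.95, 0.97 and 0.76 for the 3 genes. Without labelled wild-type replicate 3 the differences of Col6a1, Col6a2 and Col6a3 were 0.19, 0.25 and 0.21, and without labelled wild-type replicate 2 they were 1.12, 1.20 and 0.97. With the first slide position number as a block they were 0.24, 0.27 and 0.23. Col6a4, an additional collagen VI chain, went the other way, with −0.68, −2.36 and −0.40 against −2.42, −3.05 and −1.90. Its difference was −1.31 ± 0.55 (SE, adjusted p = 0.383), with labelled wild-type replicate 2 inside the labelled knockout range. Col26a1, an extracellular collagen of unsettled class, read −3.75, −3.87 and −3.40 against −2.15, −3.40 and −2.13. Labelled knockout replicates 1 and 3 lay above all others and replicate 2 did not, and the difference was 1.11 ± 0.37 (SE, adjusted p = 0.300). Another passed probe of Col26a1, which overlaps the one taken, differed by 1.06. A separate Col26a1 probe that did not pass the filter differed by −0.08.

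Among the tested FACIT genes, Col12a1, which associates with collagen I fibrils, differed by 0.33 ± 0.29 and Col16a1 by 0.01 ± 0.31 (SE). Col16a1 read 3.77, 4.25 and 3.97 against 3.63, 4.66 and 3.72, and its other passed probe gave −0.02, so no direction can be read for it. Col20a1 differed by 0.58 ± 0.42 (SE) and passed only through the labelled knockout tumours. Col9a2, a chain of the cartilage collagen IX, read −3.83, −3.18 and −3.63 in the labelled wild-type tumours and −4.20, −3.99 and −4.18 in the labelled knockout tumours. It was above background on no labelled knockout array, and with the main processing is bounded at least 1.26-fold lower there. It did not pass adjustment (limma, difference −0.58 ± 0.20, SE, adjusted p = 0.318). With normexp background correction the difference was −0.02 (limma, adjusted p = 0.947). Col9a2 passed the filter only through the labelled wild-type tumours. Cartilage and bone markers were read beside Col2a1, Col9a2 and Col11a1. Of the 6, 3 were tested, with 2 higher, 1 lower and a median of 0.24, and Acan, Runx2 and Matn1 were not tested. Sp7 differed by 0.24 without overlap, and Sox9 by −0.76. Ibsp, a bone matrix sialoprotein gene, rose at least 3.69-fold (limma, adjusted p = 0.0123), above background in 3 labelled knockout tumours and in 0 labelled wild-type tumours. It passed the filter only through the labelled knockout tumours, and that way of passing favours a higher reading there. The part of these cells in the values was not tested.

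Basement membrane genes read in both directions, and none passed adjustment (limma). At an unadjusted p under 0.05, 2 were higher (background 7.85%) and 0 lower (background 5.36%). Col4a1 and Col4a2, which form the ubiquitous collagen IV network, read lower, while Col7a1 and Col4a6 read higher. Col4a1 read 2.34, 3.19 and 2.32 in the labelled wild-type tumours and 2.49, 1.84 and 1.41 in the labelled knockout tumours. Its partner Col4a2 read 1.75, 2.58 and 1.71 against 1.88, 1.27 and 1.03. In both genes labelled wild-type replicate 2 was the highest and labelled knockout replicates 2 and 3 were the lowest, and labelled knockout replicate 1 lay inside the labelled wild-type range. The differences were −0.70 ± 0.35 (SE, adjusted p = 0.456) and −0.62 ± 0.32 (SE, adjusted p = 0.470).

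Col4a1 and Col4a2 lie head to head, and their shared start is shown because their values followed each other across the tumours. On RefSeq assembly GRCm38.p6, Col4a2 starts on the plus strand at base 11312805 of chromosome 8 and a Col4a1 transcript starts on the minus strand at base 11312826. The first 22 bases of the annotated transcripts thus overlap. The sequence chr8:11312801-11312830 is given on the plus strand, with the overlap in capitals.
Col4a1 and Col4a2: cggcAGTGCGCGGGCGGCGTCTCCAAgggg

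Other basement membrane collagens did not share that direction. Col4a6, a chain of the epithelial collagen IV network, read −2.16, −1.96 and −2.19 against −1.80, −0.87 and −1.52, without overlap (difference 0.70 ± 0.26, SE, adjusted p = 0.331). Its partner Col4a5 differed by 0.16 ± 0.30 (SE). The vessel-associated Col15a1 read −1.65, −1.26 and −1.22 against −1.75, −2.32 and −1.67, also without overlap (difference −0.53 ± 0.23, SE, adjusted p = 0.390). Col18a1, whose end fragment is endostatin, differed by 0.06 ± 0.22 (SE). Col7a1, the anchoring fibril collagen, read 5.38, 6.12 and 5.53 in the labelled wild-type tumours and 6.35, 7.04 and 6.84 in the labelled knockout tumours. All 3 labelled knockout tumours exceeded the highest labelled wild-type tumour. The difference was 1.07 ± 0.27 (SE), the smallest unadjusted p (0.00597) among the collagens that read higher, and it did not pass adjustment (limma, adjusted p = 0.229).

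Vessel markers were read beside Col4a1, Col4a2 and Col15a1. Of 6 endothelial markers, 5 read lower, with a median of −0.23, and their mean level was 0.48, 0.92 and 0.41 in the labelled wild-type tumours and 0.63, 0.28 and 0.21 in the labelled knockout tumours. All 7 pericyte and smooth muscle markers read lower, with a median of −0.86 and mean levels of 0.08, 0.83 and −0.13 against −0.36, −0.86 and −1.12. Of these, Des was above background in 0 labelled knockout tumours and passed the filter only through the labelled wild-type tumours. It read −3.37, 0.52 and −2.98 in the labelled wild-type tumours, so it raises the list's mean in replicate 2. The skeletal muscle list, given below, was also highest in that tumour. No marker of either list passed adjustment (limma). At an unadjusted p under 0.05, 4 pericyte and smooth muscle markers, Des among them, and 0 endothelial markers read lower, against 5.36% of all features. Labelled wild-type replicate 2 was highest for both lists, as it was for Col4a1 and Col4a2. The part of vessel content in the collagen IV values was not tested.

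Among the transmembrane collagens, Col17a1, the hemidesmosome collagen of basal keratinocytes, read 4.22, 4.08 and 4.48 in the labelled wild-type tumours and 4.52, 5.03 and 5.15 in the labelled knockout tumours. The labelled genotypes did not overlap, though labelled knockout replicate 1 lay close to labelled wild-type replicate 3, and the difference was 0.64 ± 0.22 (SE, adjusted p = 0.306). Another passed probe gave 0.58. Col25a1, a transmembrane collagen known from nerve and muscle, read −2.62, −2.22 and −3.64 against −1.43, −2.08 and −1.88, a difference of 1.03 ± 0.38 (SE, adjusted p = 0.338). Col13a1 differed by 0.27 ± 0.34 (SE). Col23a1 read −0.31, 0.03 and 1.26 against −0.38, −0.09 and −0.59, a difference of −0.67 ± 0.41 (SE) that came mainly from labelled wild-type replicate 3. Without that tumour it was −0.21.

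Basal keratinocyte markers were read beside Col7a1 and Col17a1. Of the 5, 4 read higher, with a median of 0.14, and mean levels were 7.35, 7.11 and 7.59 in the labelled wild-type tumours and 7.27, 7.39 and 7.67 in the labelled knockout tumours. These ranges overlapped, and the differences of the 5 markers lay between −0.18 and 0.30. Those of Col7a1 and Col17a1 were 1.07 and 0.64. The part of keratinocyte content in these values was not tested.

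**Figure D3:**
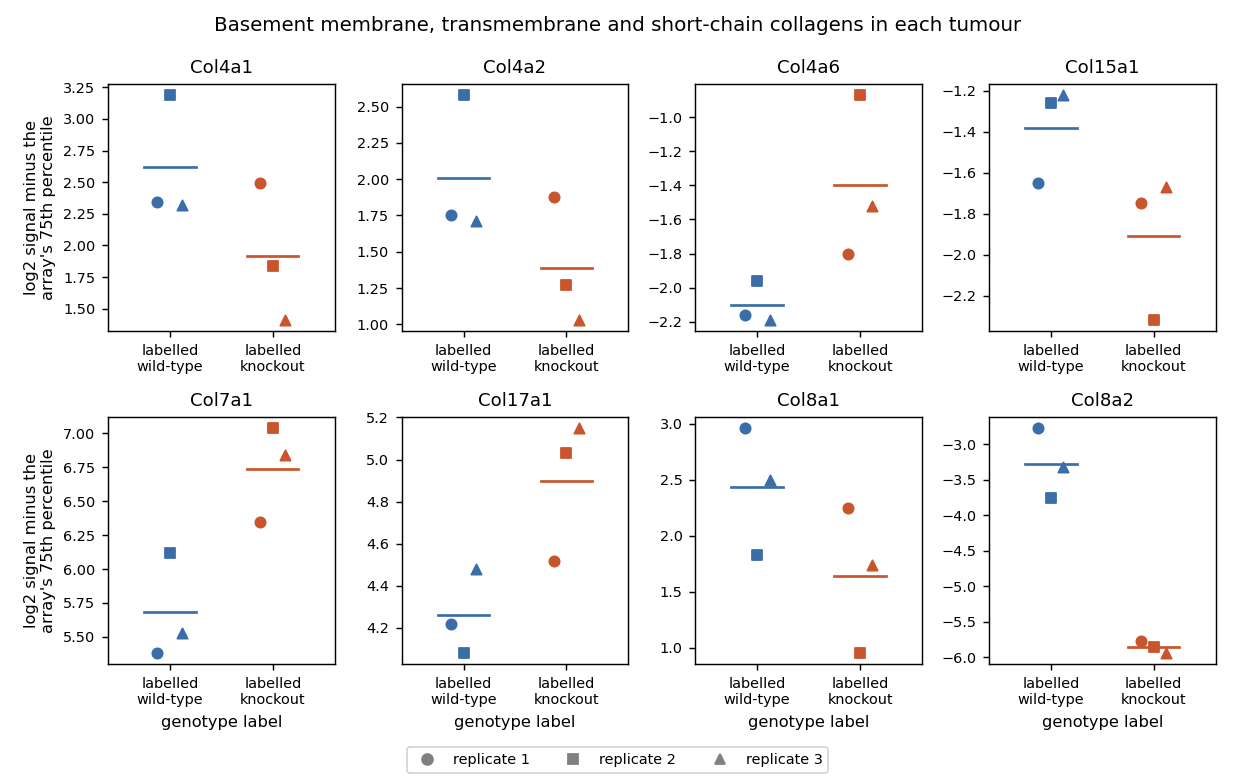
Levels of 8 basement membrane, transmembrane and short-chain collagen genes in each tumour (vertical axes: log2 signal minus the array's 75th percentile, each panel on its own scale), with the group mean as a line and a symbol per replicate. Col7a1 and Col17a1 are higher in all 3 labelled knockout tumours, and Col8a2 lies near −5.85 in all 3.

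The short-chain gene Col8a2 was the only collagen to fall. Collagen VIII is a network collagen of vessel walls and of the membrane beneath the corneal endothelium, and its chains are encoded by Col8a1 and Col8a2. Col8a2 (probe at chr4:125991441-125991500 of mm9) read −2.77, −3.76 and −3.32 in the labelled wild-type tumours and −5.77, −5.85 and −5.94 in the labelled knockout tumours. It was above background in 3 labelled wild-type tumours and in 0 labelled knockout tumours, so the labelled knockout level is a bound. With the main processing the fall was at least 1.51-fold. The bound sets the labelled wild-type mean against the lowest signal called above background. The fitted difference was −2.57 ± 0.26 (SE, limma, adjusted p = 0.0257), and the labelled knockout SD of 0.08 is that of values below background. The call was lost without labelled wild-type replicate 3 (adjusted p = 0.0718) and without labelled knockout replicate 1, 2 or 3 (0.119, 0.119 and 0.121). It was also lost with normexp background correction, where the difference was −0.36 (adjusted p = 0.399), with no filter on dim probes (0.0746) and with the first slide position number as a block (0.0652). Col8a2 passed the filter only through the labelled wild-type tumours, the group where it was high. A dimmer probe of Col8a2 was above background on none of the 6 arrays. Col8a1 read 2.96, 1.83 and 2.50 against 2.25, 0.95 and 1.74, a difference of −0.79 ± 0.41 (SE, adjusted p = 0.466), with overlapping groups.

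Most markers of deeper tissue also read lower in the labelled knockout tumours. Skeletal muscle markers read lower for 5 of 5 genes (median −5.79), hair follicle keratins for 5 of 5 (median −5.49) and adipocyte markers for 3 of 4 tested (median −4.05). Of these, 2 adipocyte markers and 1 skeletal muscle marker passed adjustment as lower (limma), against 0.111% of all features. The skeletal muscle list had mean levels of −0.17, 4.16 and 1.43 in the labelled wild-type tumours, and the adipocyte list 0.35, 0.50 and 0.18. In the labelled knockout tumours they were −4.16, −4.51 and −4.17, and −3.06, −3.55 and −3.02. Myh4, Tnnc2, Ckm, Adipoq and Cfd were above background in 0 labelled knockout tumours and passed the filter only through the labelled wild-type tumours. The hair keratins Krt71, Krt25, Krt27 and Krt35 also passed only that way, with 2, 1, 1 and 1 labelled knockout arrays above background. That way of passing favours a lower reading in the labelled knockout tumours. Col8a2 was highest in labelled wild-type replicate 1, where the skeletal muscle list was lowest of that group. Within that group Col8a2 was lowest in replicate 2, where the skeletal muscle, hair follicle and adipocyte lists were highest. Of 4 leukocyte markers, 3 read higher and 1 lower, with a median of 0.25. The part of these tissues in the Col8a2 value was not tested.

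The other 12 collagen genes could not be tested. Of them, 9 were above background on no array: Col19a1, Col22a1, Col9a1, Col9a3, Col4a3, Col4a4, Col28a1, Col6a6 and Col10a1. The remaining 3 were above background on some arrays but not on all arrays of a group. These were Col14a1 (2 labelled wild-type and 1 labelled knockout array), Col6a5 (2 and 2) and Col11a2 (1 and 0). Among the 32 that were tested, 5 passed through 1 genotype only, and that way of passing favours a difference in its direction. They were Col20a1, Col24a1 and Col27a1 through the labelled knockout tumours and Col8a2 and Col9a2 through the labelled wild-type tumours.

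Promoter letters are shown for 3 members whose values carry the main patterns: Col1a2 for the fibrillar genes, and Col7a1 and Col17a1 for the epithelial ones. Each is the 250 bases before the RefSeq start on GRCm38.p6, read along the gene's own strand, which is plus for Col1a2 and Col7a1 and minus for Col17a1. Capitals mark 4 motifs searched on both strands: the CCAAT box, the Sp1-type GC box GGGCGG, the AP-1-type element TGANTCA, and the TATA-type element TATAAA. Positions are chr6:4505368-4505617, chr9:108953336-108953585 and chr19:47692043-47692292 in that order.
Col1a2: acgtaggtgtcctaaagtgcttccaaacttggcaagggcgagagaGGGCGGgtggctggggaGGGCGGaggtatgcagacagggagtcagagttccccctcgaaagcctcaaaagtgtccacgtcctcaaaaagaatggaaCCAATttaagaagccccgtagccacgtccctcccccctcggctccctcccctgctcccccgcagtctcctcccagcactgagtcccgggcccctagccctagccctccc
Col7a1: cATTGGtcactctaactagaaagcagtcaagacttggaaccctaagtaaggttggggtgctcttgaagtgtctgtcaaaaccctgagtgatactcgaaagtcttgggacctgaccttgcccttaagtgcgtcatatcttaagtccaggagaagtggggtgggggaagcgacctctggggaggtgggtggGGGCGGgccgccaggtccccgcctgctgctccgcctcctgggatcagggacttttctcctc
Col17a1: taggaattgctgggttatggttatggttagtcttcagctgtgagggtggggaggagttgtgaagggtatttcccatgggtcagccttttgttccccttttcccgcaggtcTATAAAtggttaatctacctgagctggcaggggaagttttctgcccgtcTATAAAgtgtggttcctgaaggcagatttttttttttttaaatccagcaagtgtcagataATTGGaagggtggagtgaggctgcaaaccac

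Col1a2 holds CCAAT 105 to 109 bases before the start and GGGCGG at 183 to 188 and at 200 to 205 bases. Col7a1 holds GGGCGG at 56 to 61 bases and CCAAT, on the opposite strand, at 245 to 249 bases. Col17a1 holds TATAAA at 86 to 91 and at 135 to 140 bases, and CCAAT on the opposite strand at 27 to 31 bases. Promoters were given for 35 of the 44 collagen genes, 38 in all. CCAAT occurred in 13 of these 38 and in 33.8% of all 32851 promoters, and GGGCGG in 22 of 38 and in 32.7% of all. TATAAA occurred in 5 of 38 (12.4% of all) and TGANTCA in 1 of 38, that of Col6a1 (6.7% of all). A match describes letters only.

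Collagen chains must be hydroxylated, folded, trimmed and cross-linked, and the genes for these steps were read from lists beside the family. Of 17 tested folding and modifying genes, 14 read higher and 3 lower, with a median of 0.13. The prolyl hydroxylase subunit genes P4ha3 and P4hb differed by 0.66 ± 0.23 and 0.41 ± 0.23, and P3h2 by 0.34 ± 0.18 (SE). Plod2, a lysyl hydroxylase, differed by −0.47 ± 0.27 (SE). P4ha3 had the smallest unadjusted p of the list (0.0246, adjusted p = 0.313). Serpinh1, the collagen chaperone, differed by 0.12 ± 0.23 (SE).

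Of 9 tested processing and cross-linking genes, 5 read higher and 4 lower, with a median of 0.00. Tll1, a propeptide-cleaving protease gene, read −2.73, −2.75 and −2.72 against −2.10, −0.77 and −2.04, without overlap (difference 1.09 ± 0.36, SE, adjusted p = 0.300). The lysyl oxidase gene Lox differed by −0.64 ± 0.49 and Loxl2 by 0.29 ± 0.42 (SE). Pcolce2, a procollagen processing enhancer, differed by −0.51 ± 0.52 (SE). Of 12 tested collagen-binding matrix genes, 8 read higher and 4 lower, with a median of 0.06. The lower genes were Tnxb, a tenascin of the dermis, at −2.29 ± 0.75 (SE, adjusted p = 0.300), Prelp at −1.49 ± 0.69, Comp at −1.16 ± 0.54 and Ogn at −0.91 ± 0.56 (SE). Tnxb and Comp passed the filter only through the labelled wild-type tumours, each with 1 labelled knockout array above background. That way of passing favours a lower reading there. Of 9 tested collagen receptors, 7 read higher and 2 lower, with a median of 0.25. Ddr2, which binds fibrillar collagen, differed by 1.06 ± 0.66, Itga2 by 0.62 ± 0.38, Lair1 by 0.25 ± 0.20 and Itga1 by −0.50 ± 0.24 (SE). No gene of these 4 lists passed adjustment (limma). At an unadjusted p under 0.05, P4ha3 and Tll1 read higher (background 7.85%) and Tnxb lower (background 5.36%).

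**Figure D4:**
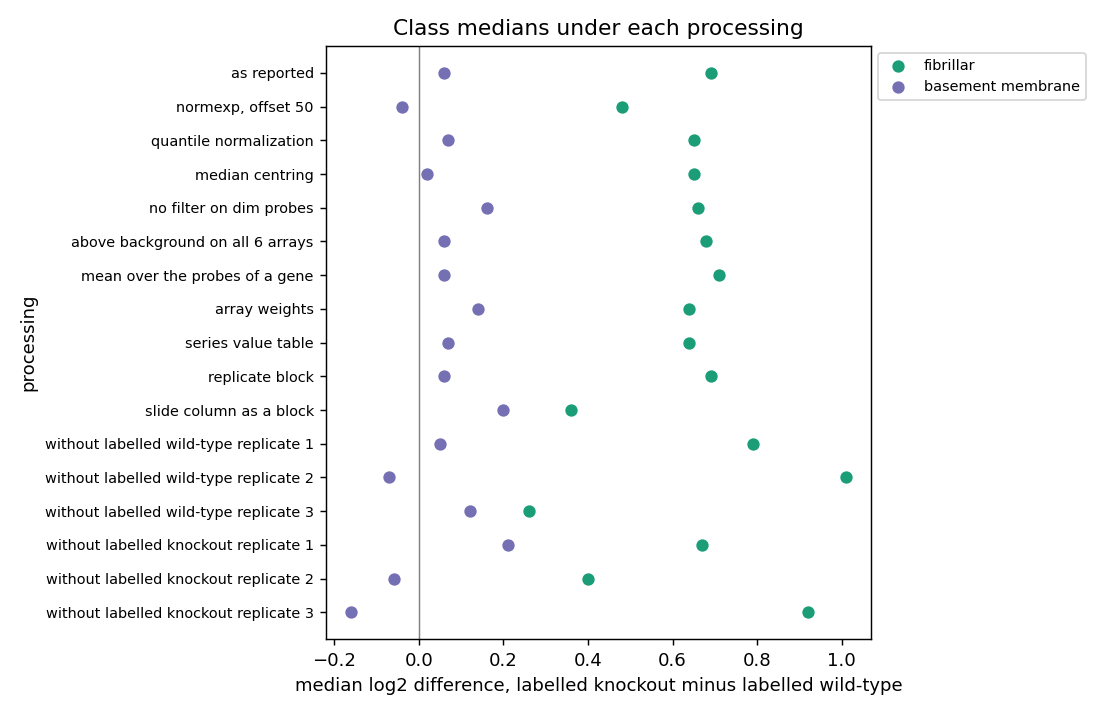
Median log2 difference of the 10 fibrillar and 7 basement membrane collagen genes (horizontal axis) under each way of processing the data or leaving out a tumour (vertical axis). The fibrillar median stays above 0 throughout but is 0.26 without labelled wild-type replicate 3, and the basement membrane median lies on either side of 0.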

How the data were processed

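The authors deposited 1 scanner file per tumour, whose columns are linear intensity per spot; the processed signal has its background subtracted, per the file headers. Agilent Feature Extraction 10.7.1.1 is named, per the submitters' processing notes. A value table of the series, also deposited, holds log2 values, whose columns gave r of 0.99945 to 0.99997 with the arrays' own signal and medians of 4.969; its normalization method is not given in the sources used.

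Processed signals were put on the log2 scale and set relative to the 75th percentile of non-control probes on their array. Spots of a probe were averaged without outlier spots (68 to 184 per array). Probes entered the test when all 3 arrays of a labelled genotype read well above background, and the brightest tested probe stood for its gene. Names came from RefSeq GRCm38.p6 (32994 probes by accession, 10224 by symbol, 520 by synonym; 12867 kept the array's name). Groups of 3 were compared with limma 3.58.1 (lmFit, eBayes) in R 4.3.3, data.table (version 1.17.8), two-sided, Benjamini-Hochberg adjusted over 19755 features, threshold 0.05; the script was tested on simulated data. Where all arrays of a group were dim, the fold is a bound against the lowest signal above background.

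The collagen members, classes, companion lists and markers were chosen with earlier results of these data known, so lists get counts and medians but no test. Genes given with their own values were those past adjustment, the main skin chains, up to 4 further members of a class or genes of a companion list with the smallest p, members whose probes disagree, and P2ry6. Col5a3, Serpinh1 and the single marker genes named were chosen after their values were seen. The result of 1 marker list is not reported here. Alternatives were normexp (offset 50), quantile normalization, median centring, other filters on dim probes, the mean over probes, array weights, the series value table, a replicate block, the first slide position number as a block, and leaving out each tumour. The second position number nearly followed genotype, so its effect cannot be told apart from genotype.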

Additional observations from a re-analysis of the deposited data

How the results depend on the processing

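Col8a2 stayed the only collagen called with quantile normalization, median centring, the mean over probes, array weights, the series value table, and without labelled wild-type replicate 1 or 2 (adjusted p from 0.00931 to 0.0401, limma). With normexp, no filter on dim probes, the filter asking for all 6 arrays (where Col8a2 was not tested), the replicate block (adjusted p = 0.0966), the slide position block, or without labelled wild-type replicate 3 or any labelled knockout replicate, 0 collagens were called, so leaving out a tumour gave 0 to 1. Without a filter its adjusted p was 0.0746. Replicate numbers did not pair the tumours: same-numbered deviations correlated at 0.06, 0.26 and 0.14, and the replicate block lowered the features called from 32 to 5. Features called numbered 10 with normexp, 18 without a filter, 5 with the all-array filter, 58 with array weights, 21 with the slide position block, and 13 to 125 when a tumour was left out. The median of all features was 0.19 without a filter, where the collagen median was 0.39 and 11 of 11 fibrillar genes read higher.

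The median of all collagens ranged from 0.14 to 0.78 over left-out tumours, the fibrillar median from 0.26 to 1.01, the FACIT median from −0.09 to 0.35 and the basement membrane median from −0.16 to 0.21; with normexp the last was −0.04. The short-chain median was −0.56 with normexp and −0.79 with either other filter. Some differences near 0 changed sign. Col16a1 gave −0.05 with normexp, −0.04 with median centring, −0.01 with the mean over probes, −0.13 with the slide position block, and −0.32 to 0.19 over all alternatives. Col18a1 gave −0.04 with normexp and −0.16 without labelled knockout replicate 3. Col5a3 gave −0.04 with the slide position block and −0.09 to 0.84 over left-out tumours. Col4a5 gave −0.07 without labelled wild-type replicate 2, −0.06 without labelled knockout replicate 2 and up to 0.41 without another tumour. Causes were not tested. The number of arrays limits the precision, and dim genes (Col8a2, Col9a2) have only a bound in the labelled knockout tumours.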

Other observations

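Some collagen genes had a pattern of their own across single tumours, chosen after their values were seen. Col23a1 read highest in labelled wild-type replicate 3 on all 3 of its probes (1.26, 0.62 and −1.95), in the tumour that was lowest for every tested fibrillar gene. Col26a1 read −3.40 in labelled knockout replicate 2 against −2.15 and −2.13 in the other labelled knockout tumours. Another of its probes, which overlaps that one, read −3.56 against −2.35 and −1.93. Labelled knockout replicate 2 was also the highest tumour for 7 of the 10 fibrillar genes.

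Dpt and Pi16 are both fibroblast genes of the dermis and read in opposite directions. Dpt read −1.60, −1.05 and −3.56 in the labelled wild-type tumours and 0.09, −0.32 and −2.43 in the labelled knockout tumours, with overlapping groups. Pi16 read 2.23, 2.59 and 0.87 against −1.37, −0.05 and −0.72, without overlap.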
